A study of Mus musculus with 8 samples.

Results

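The cytosolic translation initiation factors considered here are 30 genes of the eIF1, eIF2, eIF3, eIF4, eIF5 and eIF6 families, chosen by gene symbol from a table of ribosome footprints that holds 21874 protein-coding genes. Footprints are the short pieces of mRNA that a ribosome shields from nuclease. They came from brains of FVB mice at postnatal day 5, of the line known as Taiwanese that models spinal muscular atrophy (SMA). All mice carry the human SMN2 transgene on 1 allele, with 2 copies, and differ in the mouse Smn gene. Smn+/-; SMN2tg/0 littermates, heterozygous and phenotypically normal, served as control mice and gave 3 libraries from an immunoprecipitation of nuclease-treated ribosomes with an antibody to the SMN protein, and 1 library from a parallel immunoprecipitation with IgG. Smn-/-; SMN2tg/0 mice, in an early symptomatic stage, gave 2 libraries from RiboLace, a capture of actively translating ribosomes, and 2 libraries from polysomes of sucrose gradients. The study's text calls the libraries of a group biological replicates. Control-genotype RiboLace and polysome libraries were not analysed here, so genotype and protocol change together between the immunoprecipitates and the other libraries.

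Initiation brings the small ribosomal subunit to the start codon of an mRNA. Eif1, its close paralogue Eif1b and Eif1ax (eIF1A) govern scanning and start codon choice. The 3 subunits of eIF2 (Eif2s1, Eif2s2 and Eif2s3x) carry the initiator tRNA, and phosphorylation of Eif2s1 under stress lowers general initiation. The eIF3 complex, here with 12 genes, is the scaffold on the small subunit. Eif4e binds the mRNA cap, Eif4g1 and Eif4g3 bridge cap and ribosome, Eif4a1 and Eif4a2 are RNA helicases, Eif4b and Eif4h assist the helicase, and Eif4g2 is a relative of Eif4g1 that does not bind Eif4e. Eif5 triggers GTP hydrolysis by eIF2, Eif5b joins the subunits, Eif5a acts mainly in elongation despite its name, and Eif6 keeps the large subunit from joining too early. Some mRNAs of the translation apparatus start with a C followed by a run of pyrimidines, a feature (the TOP motif) through which mTOR signalling is known to control their translation.

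The first bases of the mRNAs are shown because that run lies there, for 3 members that hold it near the start and for the 3 members on which the results below turn. Each line gives 30 bases of the sense strand, 10 before and 20 from the RefSeq start site on, in the build GRCm38.p6, and capitals mark each run of a C followed by at least 5 C or T. Sequences are from RefSeq.
Eif2s3x (eIF2 gamma), chrX:94212632-94212661, minus strand: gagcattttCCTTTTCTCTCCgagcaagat
Eif3f, chr7:108934405-108934434, plus strand: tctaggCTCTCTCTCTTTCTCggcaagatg
Eif3l, chr15:79075213-79075242, plus strand: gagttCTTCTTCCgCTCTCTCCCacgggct
Eif3a, chr19:60790674-60790703, minus strand: ctcgggcggcggcgctgccgccgcgaggga
Eif1b, chr9:120492596-120492625, plus strand: gcgcggggctaaatacgcggcgccggccat
Eif4b, chr15:102073763-102073792, plus strand: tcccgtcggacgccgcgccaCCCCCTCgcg
A start site was matched for 25 of the 30 members, and Eif3e, Eif3h, Eif3i, Eif4g2 and Eif6 had no match. Such a run lay in the first listed window of 6 of the 25 (24%), namely Eif2s3x, Eif3f, Eif3k, Eif3l, Eif4b and Eif4g1. It lay in 22.0% of all 32851 windows of the same length and in 53.2% of 62 windows of cytosolic ribosomal protein genes. The share in the members was thus close to that of all genes and below that of the ribosomal proteins. The run in Eif4b began further downstream than those of Eif2s3x and Eif3f, and the windows of Eif3a and Eif1b held none.

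The initiation factor genes took under 1% of the coding reads in every library. Counted on the most covered protein-coding transcript of each gene, the 30 members held 825, 756 and 1313 reads in the SMN immunoprecipitates and 1144 in the IgG library. They held 251 and 252 reads in RiboLace and 11302 and 14901 in polysomes. These are 0.597%, 0.567% and 0.552% of the coding reads with SMN, 0.553% with IgG, 0.525% and 0.640% in RiboLace, and 0.680% and 0.649% in polysomes. On this count all SMN, IgG and RiboLace values lay below both polysome values, and the range of RiboLace took in those of SMN and IgG. With counts summed over all coding transcripts of a gene the shares were 0.575% to 0.614% with SMN, 0.605% with IgG, 0.602% to 0.683% in RiboLace, and 0.624% to 0.648% in polysomes, where RiboLace and polysomes overlapped. Over transcripts of any biotype the shares were 0.743%, 0.688% and 0.750% with SMN and 0.758% with IgG. These lay above both polysome values (0.681% and 0.654%), and RiboLace had 0.633% and 0.747%. The order of immunoprecipitates and polysomes thus depended on the counting. On the most covered transcript a single member had between 1 and 23 reads in a RiboLace library, against 103 to 1423 in a polysome library. RiboLace values of single members thus rest on few reads.

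Coding reads per library, on 1 transcript per gene, numbered 133295 to 237760 with SMN, 206690 with IgG, 39375 and 47846 in RiboLace, and 1661834 and 2295393 in polysomes. Of 7 marker lists for brain and blood cells, all had reads in every group, with only Pecam1 (endothelium) and Alas2 (blood) at 0 in RiboLace. The summed level of 8 neuronal markers was 9569 to 11331 CPM (counts scaled to a common library size) with SMN and 10564 with IgG. It was 11750 to 12804 CPM in RiboLace and 6058 to 6742 in polysomes. The summed level of 5 blood genes was 1976 to 2666 CPM with SMN, 1963 with IgG, 5621 to 6859 in RiboLace and 1925 to 2587 in polysomes. The summed level of 4 genes of progenitors and cycling cells was 422 to 868 CPM with SMN, 458 with IgG, 246 to 446 in RiboLace and 281 to 300.4 in polysomes. For oligodendrocyte lineage genes the IgG library (402 CPM) lay below every SMN library (632 to 1072). The same held for microglia (113 against 142 to 283.5) and for astrocytes and radial glia (1907 against 2093 to 2463). For endothelium it lay within the SMN range (232 against 127 to 363). In brain tissue, fewer cells of a type and less RNA per cell cannot be told apart. The part of cell composition in the results below was not tested.

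The libraries differed in how alike the counts of similar isoforms were, which bears on the 19 of 30 members with several transcripts. In pairs of isoforms with the same coding and 3′ UTR length and nearly the same full length, reads drawn separately would give a median chi-square of 0.455 for the difference of the 2 counts. The median over 226 and 242 such pairs was 0.478 and 0.599 in the polysome libraries, and over 35 pairs it was 0.391 in SMN replicate 2. It was 0.111 and 0.143 in SMN replicates 1 and 3 (72 and 111 pairs), 0.132 with IgG (98 pairs), and 0.180 and 0.0823 in RiboLace (18 and 14 pairs). In these 5 libraries the counts of look-alike isoforms were closer to each other than separate draws of reads would be, while SMN replicate 2 lay with the polysomes.

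**Figure D1:**
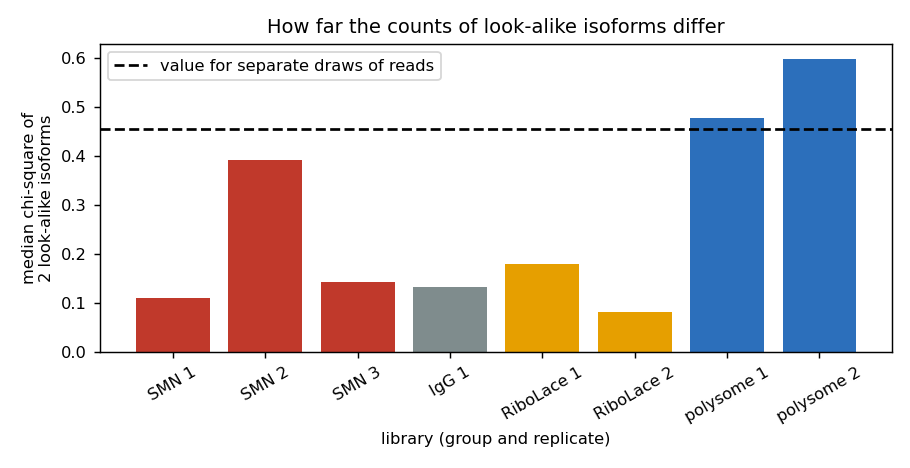
Bars give, for each library, the median chi-square of the difference between the counts of 2 look-alike isoforms, and the dashed line marks the value for separate draws of reads (0.455). SMN replicate 2 and both polysome libraries lie near or above the line, the other 5 libraries well below it.

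Of the members, 11 have a single transcript in the table, so their reads are not divided among isoforms there. They are Eif1b, Eif2s1, Eif4b and 8 eIF3 genes (Eif3a, Eif3c, Eif3d, Eif3e, Eif3g, Eif3h, Eif3k and Eif3l). The members with most transcripts belong to the eIF4 group and Eif5a: Eif4a2 has 24, Eif4g1 has 22, Eif4g2 and Eif4g3 have 14 each, and Eif4a1 and Eif5a have 13 each. The ratio of eIF4 to eIF3 reads was 0.734, 0.342 and 0.803 with SMN, 0.759 with IgG, 0.537 and 0.696 in RiboLace, and 0.399 and 0.413 in polysomes. SMN replicate 2, the immunoprecipitate whose isoform counts looked like those of polysomes, was also the one with an eIF4 to eIF3 ratio below the polysome values. Summed over coding transcripts the ratio was 2.16, 0.884 and 2.33 with SMN, 2.37 with IgG, 1.47 and 1.59 in RiboLace, and 0.914 and 0.980 in polysomes, so eIF4 reads outnumbered eIF3 reads in 5 libraries where they were fewer on 1 transcript. Over transcripts of any biotype it was 3.71, 1.70 and 4.26 with SMN, 4.47 with IgG, 2.29 and 2.74 in RiboLace, and 1.45 and 1.53 in polysomes, with SMN replicate 2 above the polysomes. The part of isoform counting in this ratio was not tested.

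In polysomes, counts of look-alike isoforms differed at least as much as separate draws would. There, counts summed over the coding transcripts of a gene were used to set the members side by side. They were divided by the coding length of its most covered transcript. This footprint density (CPM per kb of coding sequence, mean ± SD over 2 libraries) was highest for Eif5a, at 1091 ± 58.9, and lowest for Eif5b, the subunit-joining GTPase, at 14.3 ± 0.450. Eif1, at 506 ± 19.0, and Eif1b, at 398 ± 21.9, came next, then Eif4h at 317 ± 16.2, and the scanning factor Eif1ax at 233 ± 1.36. The other eIF4 genes had densities between 211 ± 0.125 for the helicase Eif4a2 and 48.9 ± 6.29 for the scaffold Eif4g3, with 79.8 ± 1.59 for Eif4g1.

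The cap-binding protein Eif4e lay at 196 ± 1.45 CPM per kb, a density above that of both scaffolds on this scale. Per kb of the whole transcript the order turned for members with long untranslated parts, with 25.6 for Eif4e, 70.4 for Eif4g1 and 37.7 for Eif4g3, and with Eif1ax at 19.6, next to last, while Eif5a (369) stayed highest and Eif5b (6.69) lowest. The 12 eIF3 genes were more even, between 188 ± 16.9 for Eif3h and 61.7 ± 4.18 for Eif3a, the largest core subunit, with a median of 119. The 3 eIF2 subunits had densities of 112 ± 25.4 for Eif2s3x, 93.9 ± 7.05 for Eif2s2 and 70.9 ± 2.23 for Eif2s1, and Eif6 had 104 ± 2.30. Of the 29 pairs of neighbours in this order, 16 had overlapping ranges over the 2 libraries, so the order within the middle of the list is not settled, while the places of Eif5a, Eif1, Eif1b and Eif4h at the top and of Eif4g3 and Eif5b at the bottom were separated.

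On the most covered transcript alone the order changed for members with many isoforms. Only 8.86% of the coding reads of Eif5a and 11.3% of those of Eif4g1 lay on 1 transcript, and their densities on that transcript in polysomes were 181 ± 12.8 and 15.5 ± 3.12 CPM per kb. On that scale Eif1b was highest, at 740.1 ± 36.7, and Eif4g1 lowest. For Eif4a1, 18.4% of the reads on all transcripts of the gene lay on its coding transcript, and the processed pseudogene Eif4a-ps4 held 83, 24 and 87 reads with SMN, 101 with IgG, 14 and 13 in RiboLace, and 446 and 623 in polysomes. That transcript held 81, 21 and 105 with SMN, 98 with IgG, 19 and 23 in RiboLace, and 491 and 668 in polysomes, so the copy was above it in 3 libraries and below it in 5. Reads of Eif4a1 and of this copy may not be separable, and the level of Eif4a1 is uncertain.

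**Figure D2:**
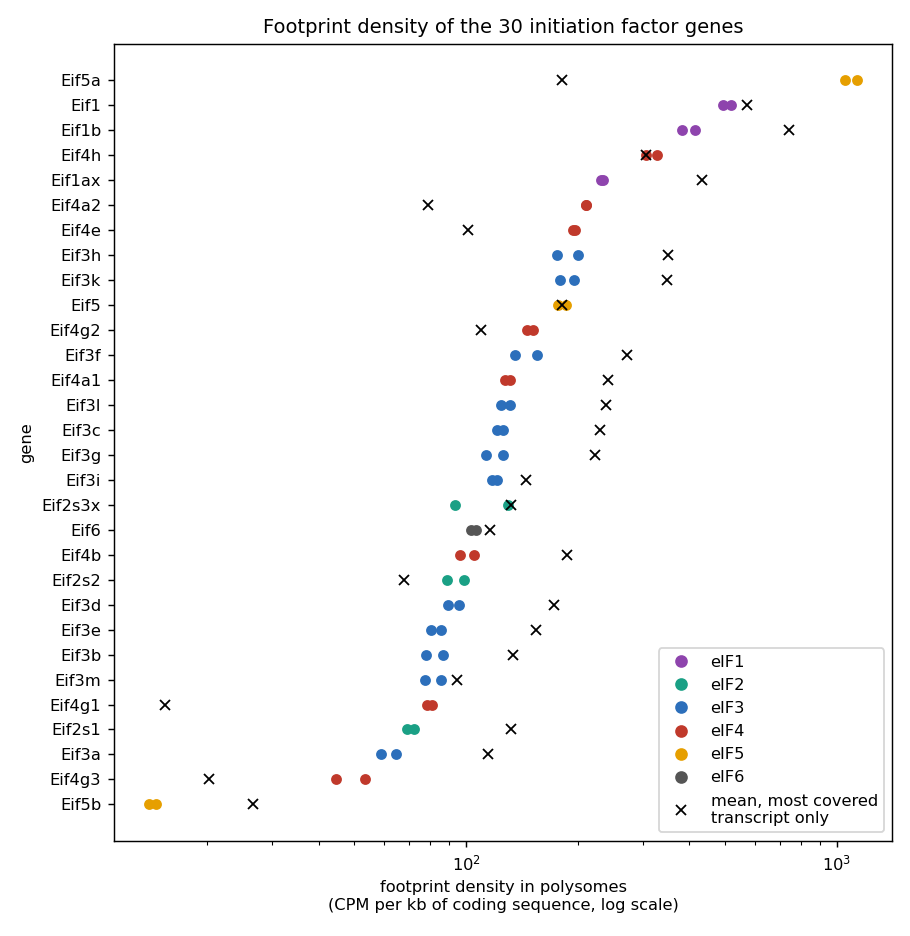
Footprint density of each initiation factor gene in the 2 polysome libraries of SMA brain, in CPM per kb of coding sequence on a log axis. Points are libraries with reads summed over coding transcripts, coloured by family, and crosses are the mean on the most covered transcript alone, on a scale with its own library total, which raises genes with 1 transcript. Eif5a is highest and Eif5b lowest by summed reads, and crosses fall far left of the points for Eif5a, Eif4g1, Eif4a2 and Eif4g3.

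The SMN and IgG immunoprecipitates of control brain bear on whether the initiation factor mRNAs were bound to ribosomes recovered through SMN more than to those recovered without a specific antibody. No member passed the test. Of 29 members tested (Eif4e had too few reads), 0 were higher and 0 lower with edgeR's quasi-likelihood test at a Benjamini-Hochberg adjusted p under 0.05, against 0.0% and 0.0181% of all 5517 genes tested. DESeq2 and limma-voom also called 0 members, and edgeR without SMN replicate 2 called 0, against 0.0351% higher and 0.0526% lower of 5699 genes. The median log2 fold change of the members, SMN over IgG, was 0.08, beside 0.03 over all genes, with 17 above 0 and 12 below. With 1 IgG library, its spread was taken to equal that of the SMN libraries, and the standard errors of the members' log2 fold changes were 0.46 to 0.69, so the comparison does not show that members were alike.

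Eif3k, a small eIF3 subunit, had the highest value and was the 1 member with an unadjusted p under 0.05. Among genes with a single transcript, where CPM are relative to those genes alone, Eif3k had 404, 533 and 358 CPM with SMN and 204 CPM with IgG, where it held 10 reads. Every SMN library lay above the IgG library. Its log2 fold change over all genes was 1.32 (SE 0.66, edgeR adjusted p = 0.999), and among single-transcript genes it was 1.07 (SE 0.54, adjusted p = 0.992). Eif1ax had the lowest value, with 78.2, 88.6 and 73.5 CPM with SMN and 136 CPM with IgG (edgeR adjusted p = 0.999, log2 fold change -0.77 with an SE of 0.60). Here and below, CPM are TMM-scaled over the 8 libraries on the most covered transcript unless said to be among single-transcript genes. Among the 11 single-transcript members the median log2 fold change was -0.03, beside 0.03 over 1555 such genes, and 0 were called by edgeR, with 0 at an unadjusted p under 0.05, against 0.0% of those genes called in either direction.

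In SMA brain, RiboLace against polysomes compares ribosomes captured as active with all ribosomes of the polysome fractions. Eif4b, the cofactor of the eIF4A helicase, was the 1 member past the threshold, and it was lower in RiboLace. Of 30 members tested, 0 were higher and 1 was lower, against 1.31% higher and 0.925% lower of all 10807 genes tested. At an unadjusted p under 0.05, 3 members were higher and 4 lower, beside 483 and 1092 of the 10807 genes. DESeq2 called 1 member higher (Eif4a2) and 0 lower, against 1.66% and 0.0463% of the same genes, and limma-voom called 0. With a minimum count of 50, 3 members were higher (Eif4a1, Eif4a2 and Eif5a) and 1 was lower (Eif4b), against 5.24% and 1.52% of 4923 genes. The members' median log2 fold change was -0.30, beside -0.29 over all genes.

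Eif4b had 4 and 6 reads in RiboLace and 589 and 757 in polysomes. On the scale of single-transcript genes these were 259 and 521 CPM in RiboLace and 837 and 781 CPM in polysomes, and both RiboLace values lay below both polysome values. Its log2 fold change was -1.61 (SE 0.40, edgeR adjusted p = 0.00492). Among single-transcript genes alone it was -1.25 (SE 0.41, adjusted p = 0.0686), beside a median of -0.36 over those 3131 genes, and 0 of the 11 such members were called, against 3.1% higher and 0.319% lower of those genes. The call was lost with DESeq2 (adjusted p = 0.0617), with limma-voom (0.329), with all 8 libraries in 1 edgeR fit (0.184) and without RiboLace replicate 1 (0.414) or 2 (0.121), all with the same direction.

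The eIF3 and the eIF4 genes lay mostly on different sides of 0. All 12 eIF3 genes had a log2 fold change below 0, as did 6834 of the 10807 genes, with a median of -0.46, and 0 were called, with 3 lower at an unadjusted p under 0.05. With all 8 libraries in 1 fit 11 of the 12 were below 0, and among single-transcript genes 6 of 8, with a median of -0.09 beside -0.36 over those genes. The lowest eIF3 member was Eif3i, with 66.9 and 54.7 CPM in RiboLace and 141 and 144 CPM in polysomes (log2 fold change -1.34, adjusted p = 0.193), but its RiboLace values are 3 and 2 reads. Of the 8 eIF4 genes 6 were above 0, with a median of 0.06. Eif4a2 was the highest member, with 178 and 273 CPM in RiboLace and 87.3 and 84.5 CPM in polysomes, without overlap (log2 fold change 1.23, adjusted p = 0.0717).

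Eif5a, the elongation-linked factor, followed. It had 134 and 301 CPM in RiboLace and 88.5 and 80.1 CPM in polysomes (log2 fold change 1.18, adjusted p = 0.0990). Summed over coding transcripts, Eif5a had 81 and 85 reads in RiboLace and 1610 and 2094 in polysomes, and its log2 fold change of 1.09 (SE 0.18) passed the threshold (edgeR adjusted p = 2.69e-07), and Eif4b (-1.51, adjusted p = 0.0287) was the member lower, against 2.06% higher and 0.432% lower of 11817 genes on that scale. Eif4a2 (0.66, adjusted p = 0.161) did not pass. These sums take in 13 coding transcripts of Eif5a, 1 of which held 6 and 11 reads in RiboLace and 146 and 184 in polysomes, and the part of isoform counting in this value was not tested. Over all genes the median was -0.72 for genes with 1 transcript and 0.14 for genes with 8 to 15, and the single-transcript members had a median of -0.46 and the 4 members with 8 to 15 transcripts one of 0.37. The values of Eif4a2 and Eif5a lie above the median of genes with as many transcripts, and the part of isoform counting in them was not tested.

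**Figure D3:**
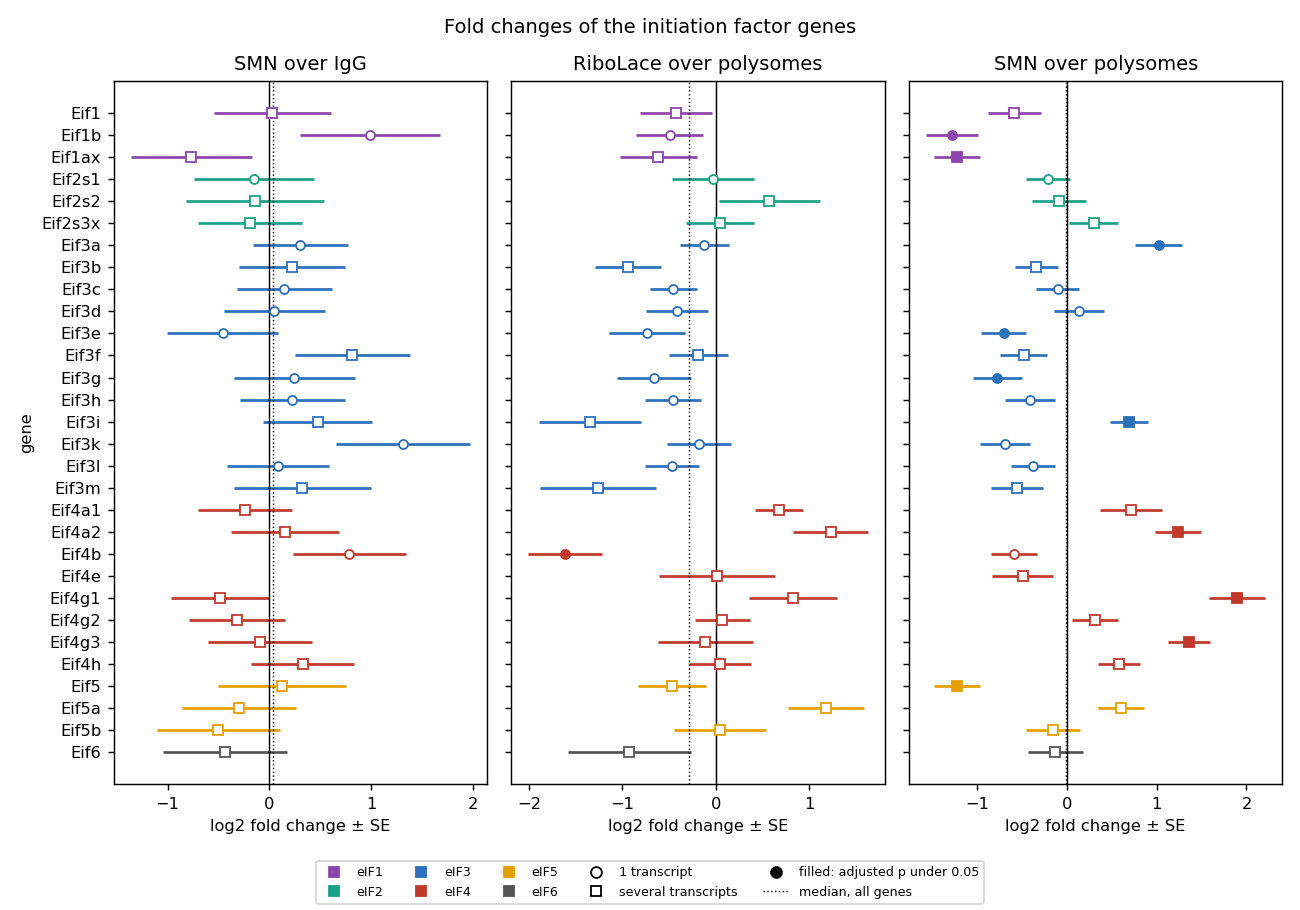
Log2 fold change with its standard error (edgeR) of each initiation factor gene in the 3 comparisons, coloured by family, with circles for members with 1 transcript and squares for members with several. Filled symbols have an adjusted p under 0.05 (0 in SMN over IgG, 1 in RiboLace over polysomes, 10 in SMN over polysomes), and the dotted line is the median of all genes tested.

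SMN immunoprecipitates of control brain against polysomes of SMA brain is the comparison with the most calls, and genotype and protocol cannot be told apart in it. Of 30 members 5 were higher with SMN (Eif3a, Eif3i, Eif4a2, Eif4g1 and Eif4g3) and 5 were lower (Eif1b, Eif1ax, Eif3e, Eif3g and Eif5), against 16.4% higher and 11.1% lower of all 6484 genes tested. DESeq2 called 6 higher and 3 lower, against 13.1% and 5.83%, and a minimum count of 50 left 16 members with 2 higher and 3 lower, against 15.9% and 13.6% of 1220 genes. The members' shares were near the background. Their median log2 fold change was -0.18, beside -0.02 over all genes. Without SMN replicate 2, whose isoform counts resembled those of polysomes, 9 members were higher and 10 lower, against 16.0% and 14.5% of 10996 genes. Without SMN replicate 1 the numbers were 3 and 2, against 4.04% and 1.41% of all genes, and without SMN replicate 3 they were 2 and 0, against 3.47% and 0.84%. Without polysome replicate 1 they were 0 and 0, against 1.66% and 0.613%, and without polysome replicate 2 they were 1 and 0, against 1.72% and 0.651%. Without SMN replicate 2 the members' calls rose, as did those of all genes, from 1062 to 1755 higher and from 719 to 1593 lower. The same 30 members were tested, but 10996 genes instead of 6484. The shares of all genes called are thus not directly comparable between these fits. Without SMN replicate 1 or 3 the members' calls fell, and so did the number and the share of all genes called.

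The higher members were both scaffolds of the cap complex, a helicase and 2 eIF3 subunits. The lower ones were 3 of the scanning and start codon factors and 2 other eIF3 subunits, while Eif1 was not called (edgeR adjusted p = 0.144). With calls near the background, no pattern by function is read from them. On counts summed over coding transcripts, Eif4g1 alone of the higher members kept its call. Eif4g1 had 391, 97.5 and 314 CPM with SMN and 63.7 and 84.9 CPM in polysomes (edgeR adjusted p = 0.000798, log2 fold change 1.90 with an SE of 0.31). Replicate 2 was far below the other SMN libraries and just above the polysomes. Eif4a2 had 252, 106 and 221 CPM with SMN and 87.3 and 84.5 CPM in polysomes (edgeR adjusted p = 0.00341, log2 fold change 1.24 with an SE of 0.25). The pattern over libraries was the same as for Eif4g1, with replicate 2 lowest among the SMN libraries. Eif4g3 had 183, 195 and 309 CPM with SMN and 89.8 and 102 CPM in polysomes (edgeR adjusted p = 0.00115, log2 fold change 1.36 with an SE of 0.24). Eif3i, a peripheral eIF3 subunit, had 261, 221 and 206 CPM with SMN and 141 and 144 CPM in polysomes (edgeR adjusted p = 0.0236, log2 fold change 0.69 with an SE of 0.21).

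Among the lower members, Eif5 had 113, 97.5 and 88.2 CPM with SMN and 236 and 231 CPM in polysomes (edgeR adjusted p = 0.00356, log2 fold change -1.23 with an SE of 0.25). Eif1ax had 78.2, 88.6 and 73.5 CPM with SMN and 187 and 189.8 CPM in polysomes (edgeR adjusted p = 0.00392, log2 fold change -1.23 with an SE of 0.26). The 3 SMN libraries agreed closely for both genes and lay below both polysome libraries. Eif3g had 60.8, 159 and 137 CPM with SMN and 224 and 203 CPM in polysomes, and Eif3e had 156, 142 and 93.1 CPM with SMN and 212 and 201 CPM in polysomes. These 2 eIF3 subunits, with log2 fold changes of -0.78 and -0.71, passed the threshold narrowly (edgeR adjusted p = 0.0445 and 0.0474). The IgG library gave values of the same direction against polysomes for the members named: log2 ratios of 2.35 for Eif4g1, 1.03 for Eif4a2, 1.37 for Eif4g3, 0.21 for Eif3i, -1.37 for Eif5 and -0.47 for Eif1ax, with no test. These ratios share the polysome libraries with the SMN values.

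The members at the ends of the density order on the most covered transcript that passed no test in any comparison are given here with their values in every library. Eif2s3x, the tRNA-binding subunit of eIF2, had 322, 177 and 191 CPM with SMN, 260.3 with IgG, 268 and 137 in RiboLace, and 219 and 156 in polysomes. Eif2s2, its beta subunit, had 52.1, 53.2 and 73.5 CPM with SMN, 67.9 with IgG, 134 and 82.0 in RiboLace, and 68.5 and 67.0 in polysomes. The SMN range took in a polysome value for Eif2s3x and both for Eif2s2, while both RiboLace values of Eif2s2 lay above the polysomes. Eif2s3y, the Y-linked paralogue of Eif2s3x outside the list, held 0, 0 and 11 reads with SMN and 3 with IgG. It held 0 and 0 reads in RiboLace and 1 and 98 in polysomes. The libraries may thus differ in the sex of the animals. The part of sex in the values of Eif2s3x, and in its spread between the polysome libraries, was not tested. Within eIF3, Eif3h had 252, 399 and 196 CPM with SMN, 238 with IgG, 312 and 273 in RiboLace, and 393 and 349 in polysomes. Eif3m had 78.2, 53.2 and 78.4 CPM with SMN, 56.6 with IgG, 44.6 and 54.7 in RiboLace, and 98.9 and 114 in polysomes. For Eif3m all other libraries lay below both polysome libraries, and for Eif3h SMN replicate 2 lay above both. Eif4h, the helper of the helicase, had 348, 292 and 358 CPM with SMN, 266 with IgG, 245 and 273 in RiboLace, and 240.2 and 217 in polysomes. Eif5b had 104, 35.4 and 103 CPM with SMN, 119 with IgG, 156 and 54.7 in RiboLace, and 94.6 and 99.7 in polysomes. Every SMN library of Eif4h lay above the polysomes (edgeR adjusted p = 0.0785). For Eif5b SMN replicate 2 and RiboLace replicate 2 lay far below the rest, but they held only 4 and 2 reads.

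Transcript number moved with the SMN to polysome values. Over all genes the median log2 fold change was -0.44 for genes with 1 transcript and 0.70 for genes with 8 to 15, and Spearman's rho between transcript number and fold change was 0.519 over 6484 genes and 0.600 over the 30 members. These are correlations across genes, which share the libraries and are not replicates. For SMN over IgG rho was -0.311 over all genes and -0.404 over 29 members, and it was -0.04 and -0.09 without SMN replicate 2. For RiboLace over polysomes it was 0.338 and 0.552. On counts summed over coding transcripts rho over the members was 0.515 for SMN over polysomes, -0.541 for SMN over IgG and 0.579 for RiboLace over polysomes. Coding length moved with the SMN to polysome fold change too, with a rho of 0.423 over all genes and 0.443 over the members. With counts summed over coding transcripts 1 member was higher (Eif4g1, log2 fold change 1.65, adjusted p = 0.0232) and 4 were lower (Eif1b, Eif1ax, Eif4e and Eif5), against 7.62% and 4.85% of 8940 genes.

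**Figure D4:**
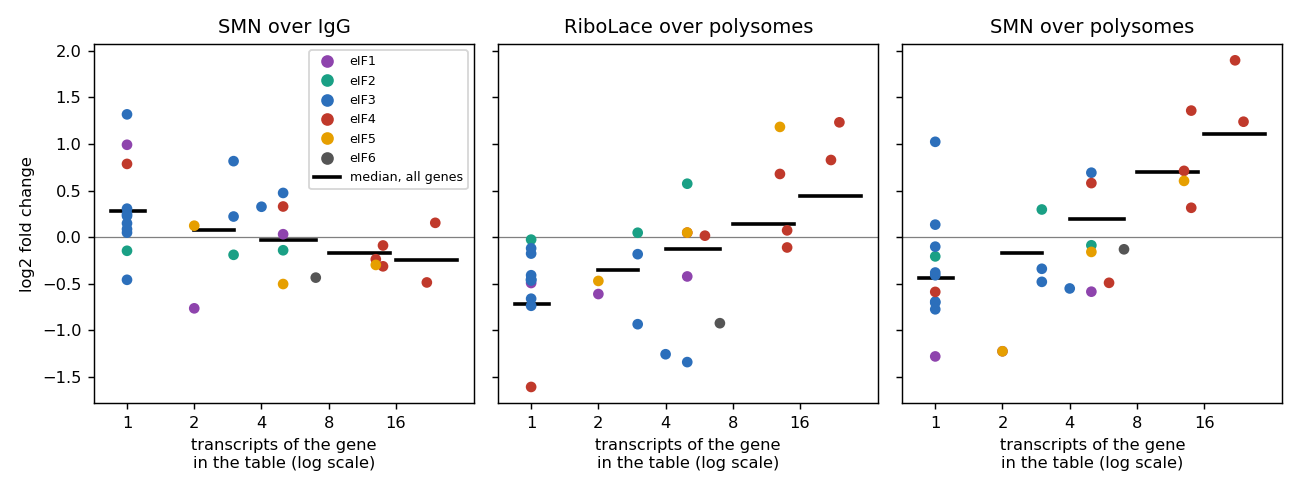
Log2 fold change of each initiation factor gene in the 3 comparisons (vertical axis) against the number of transcripts the gene has in the table (horizontal log axis), coloured by family, with bars for the median of all genes with that many transcripts. The bars rise to the right in RiboLace over polysomes and in SMN over polysomes and fall slightly in SMN over IgG, and the eIF4 genes with 13 or more transcripts lie at the right.

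Single-transcript genes, tested alone, leave 2 members that differed between SMN immunoprecipitates and polysomes. Eif3a, the large core subunit of eIF3, had 3640.4, 2646 and 2388 CPM with SMN and 1135 and 1049.8 CPM in polysomes. Every SMN library lay above both polysome libraries by a wide margin. The log2 fold change was 1.38 (SE 0.19, edgeR adjusted p = 0.000654), or 2.60-fold. In the edgeR fit over all genes it was 1.02 (adjusted p = 0.0112). With summed coding transcripts it was 1.01 (adjusted p = 0.0581) and did not pass. Eif1b, the paralogue of the start codon factor Eif1, had 187, 363 and 358 CPM with SMN and 614 and 578.5 CPM in polysomes, with no overlap. Its log2 fold change was -0.90 (SE 0.22, adjusted p = 0.0148), or 0.537-fold. For Eif1b the edgeR fit over all genes gave -1.28 (adjusted p = 0.00602), and summed coding transcripts gave -1.32 (adjusted p = 0.0422). The size of both values thus depended on the set of genes in the fit. Of the 1852 genes tested 14.4% were higher and 9.56% lower, so 1 of 11 members in each direction is near the background.

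The other 9 single-transcript members did not pass the threshold, and their log2 fold changes lay between -0.39 for Eif3g and 0.48 for Eif3d (adjusted p = 0.0503), a subunit that in human cells can bind the cap of some mRNAs. Eif3e and Eif3g, called over all genes, had values of -0.33 and -0.39 here (adjusted p = 0.296 and 0.243). The median of the 11 was -0.07, beside -0.02 over the 1852 genes. Leaving out polysome replicate 1 gave adjusted p = 0.0568 for Eif3a and 0.264 for Eif1b, and leaving out replicate 2 gave 0.0753 and 0.225. Without SMN replicate 1 Eif1b had an adjusted p of 0.0745, and Eif3a passed without any 1 of the SMN libraries.

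The IgG library had 2719 CPM of Eif3a, within the SMN range, and 184 CPM of Eif1b, at the level of SMN replicate 1 and well below the other SMN libraries. The log2 fold change of SMN over IgG among single-transcript genes was 0.08 for Eif3a (edgeR adjusted p = 0.994) and 0.76 for Eif1b (adjusted p = 0.992). RiboLace had 1427 and 1389.6 CPM of Eif3a and 713 and 434 CPM of Eif1b. The log2 ratio of IgG over polysomes was 1.32 for Eif3a and -1.70 for Eif1b, with no test. On this scale the SMN and IgG libraries lay above all RiboLace and polysome libraries for Eif3a and below them for Eif1b. In CPM scaled over all genes, Eif1b in SMN replicate 2 (151 CPM) lay above RiboLace replicate 2 (137 CPM). Eif1b held only 6, 17 and 21 reads with SMN, 9 with IgG and 11 and 5 in RiboLace. Its distance from RiboLace thus rests on few reads. With 4035 coding bases Eif3a is the longest of the single-transcript members and Eif1b with 342 the shortest, and the part of coding length in their values was not tested.

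**Figure D5:**
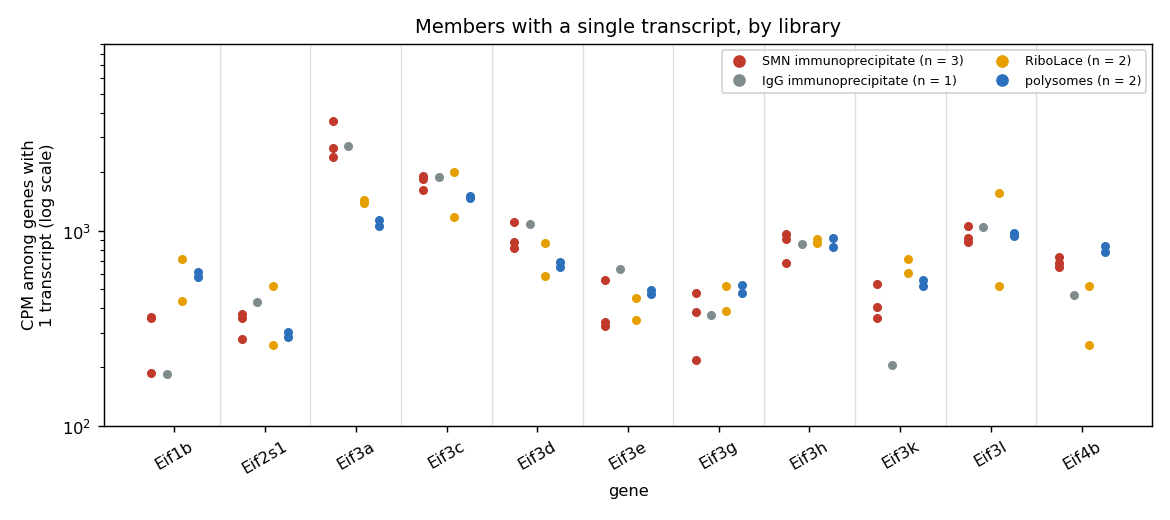
Level of the 11 initiation factor genes with a single transcript in every library, in CPM among single-transcript genes on a log axis. For Eif3a the 3 SMN libraries (2388 to 3640.4) and the IgG library (2719) lie above RiboLace and polysomes (1049.8 to 1427), and for Eif1b the SMN and IgG libraries (184 to 363) lie below them (434 to 713).

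Other genes of the initiation pathway, a list of 43 regulators and accessory factors, showed few calls. For SMN over IgG 20 were tested and 0 called in either direction with edgeR, DESeq2 or limma-voom, with 0 at an unadjusted p under 0.05. For RiboLace over polysomes 36 were tested and 0 called with any of the 3 tools, with 1 higher and 4 lower at an unadjusted p under 0.05 in edgeR. The smallest unadjusted p belonged to Abce1, a ribosome recycling factor (log2 fold change -1.29, adjusted p = 0.0782). Summed over coding transcripts, 1 of 40 was higher in RiboLace (Paip2, log2 fold change 1.32, edgeR adjusted p = 0.00111) and 0 were lower. All genes on that scale had 2.06% higher and 0.432% lower. For SMN over polysomes 4 of 28 were higher and 3 lower, shares near those of all genes (16.4% and 11.1%). The higher ones were Cyfip1 (log2 fold change 1.59), an Eif4e-binding partner of the fragile X protein; Eif4e2 (1.34), a cap-binding homologue; Mknk2 (0.94), a kinase of Eif4e; and Mtor (0.67).

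The 3 lower ones were Eif1ad (-1.67), Bzw2 (-1.27), a mimic of Eif5, and Denr (-1.12), which acts in reinitiation. Summed over coding transcripts, Cyfip1 was higher and Eif1ad, Bzw2 and Denr were lower, while Eif4e2, Mknk2 and Mtor did not pass. The kinase mTOR is the regulator of the cap-binding step, but its value of 0.67 became 0.61 (adjusted p = 0.173) on the summed scale.

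The elongation factors and ribosomal proteins, set beside the initiation factors as the other parts of the apparatus, had higher medians than these in the comparisons with polysomes. The medians of 7 elongation factor genes were 0.05 for RiboLace over polysomes and 0.45 for SMN over polysomes. Among them Eef1a1 was higher in RiboLace (log2 fold change 1.08, adjusted p = 1.01e-07), and Eef1a1 (1.45) and Eef2 (1.33) were higher with SMN than in polysomes. The RiboLace call of Eef1a1 was lost with limma-voom (adjusted p = 0.380), with all 8 libraries in 1 edgeR fit (0.0607) and without RiboLace replicate 2 (0.397), with the same direction. In SMN over polysomes Eef1a1 lost its call without polysome replicate 1 (0.0602) or 2 (0.143) or SMN replicate 3 (0.0570), and Eef2 without polysome replicate 1 (0.0970) or 2 (0.173). Of the cytosolic ribosomal protein genes, 27 of 77 were higher and 1 lower with SMN than in polysomes, with a median of 0.47, beside -0.18 for the initiation factors and against 16.4% and 11.1% of all genes called. The number was 15 higher and 1 lower with DESeq2, 15 and 3 with library totals (median 0.18), 7 and 2 of 81 with summed coding transcripts, and 41 and 3 of 81 without SMN replicate 2. For RiboLace over polysomes 0 of 81 passed with edgeR, DESeq2 or limma-voom, with 11 higher and 0 lower at an unadjusted p under 0.05 in edgeR and a median of 0.24, beside -0.30. Among single-transcript genes the ribosomal protein medians were 0.59 for SMN over polysomes and 0.45 for RiboLace over polysomes, beside -0.07 and -0.09 for the initiation factors.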

How the data were processed

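The deposited file is 1 table of raw read counts per Ensembl transcript for 8 libraries, beside lengths of each transcript and its coding and untranslated parts, per the file headers. Trimmomatic 0.36, Bowtie2 2.2.6, SAMtools and the build GRCm38.p4 are named per the submitters' processing notes. The rule for reads with several matches is not given in sources used here. A gene's value is the count of its most covered protein-coding transcript, by the total over libraries scaled to equal depth. Counts were tested with edgeR 4.0.16 in R 4.3.3 (robust quasi-likelihood, two-sided, TMM, filterByExpr with a minimum count of 10) over all coding genes of the groups compared, and Benjamini-Hochberg adjusted p-values under 0.05 were called. Alternatives were DESeq2 1.42.0, limma-voom (limma 3.58.1), summed coding transcripts, 1 fit over all 8 libraries, scaling by library totals, a filter at 50 counts or none, the replicate block and each library left out. Added after seeing the data were sums over transcripts of any biotype, summed densities, and single-transcript genes only, where CPM are relative to the total of those genes. Other CPM are TMM-scaled. The scripts were tested on simulated counts. Tables and figures were made with pandas 2.3.3 and matplotlib 3.10.9 in Python 3.11.15.

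The members and gene lists were chosen with earlier results of these data known. For members past the threshold in the main edgeR fits, and for the extreme fold changes, values are given in each library of the groups compared. Members at the ends of the density order on the most covered transcript that passed no test have values in every library. Promoter windows came from RefSeq (GRCm38.p6). The groups with the same replicate numbers are not stated to share an animal.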

Additional observations from a re-analysis of the deposited data

How the results depend on the processing

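For SMN over IgG, 0 members were called under every alternative run. For RiboLace over polysomes, the number of members higher became 1 with DESeq2 and with summed coding transcripts, 2 with summed transcripts of any biotype and 3 with a minimum count of 50, and lay between 0 and 1 with 1 library left out. The number lower became 0 with DESeq2, limma-voom, all 8 libraries in 1 fit and a replicate block, and lay between 0 and 1 with 1 library left out, where losing either RiboLace library gave 0. For SMN over polysomes (5 higher and 5 lower), DESeq2 called 3 lower, library totals 11 lower and no filter 8 lower. A minimum count of 50 kept 16 members and called 2 higher and 3 lower. Summed coding transcripts gave 1 higher, and transcripts of any biotype gave 2 higher and 3 lower. Leaving out 1 library gave 0 to 9 higher and 0 to 10 lower, with the top values without SMN replicate 2 and the lowest without polysome replicate 1. Without SMN replicate 1 the numbers were 3 and 2, and without SMN replicate 3 they were 2 and 0. Among single-transcript members, 1 library left out gave 0 to 1 lower for RiboLace over polysomes and 0 to 1 in each direction for SMN over polysomes. No direction of a called member reversed. The cause of these changes was not tested, except that leaving out libraries and a stricter filter leave fewer samples or genes.

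Under library totals the median of all genes in SMN over polysomes was -0.31, against -0.02 with TMM, and 636 genes were higher and 1578 lower, against 1062 and 719. For RiboLace over polysomes DESeq2 called 179 genes higher and 5 lower, against 142 and 100. In the fit with a replicate block, 0 members were higher and 0 lower for SMN over polysomes (replicates 1 and 2), and 58 and 0 genes for RiboLace over polysomes, 9 and 0 for SMN over polysomes. Eef1a1 had an adjusted p of 0.147 in that fit for RiboLace over polysomes. The correlation of same-numbered deviations was 0.0224 for RiboLace with polysomes and 0.0203 for SMN with polysomes. With few RiboLace reads per gene, such a value cannot tell whether same-numbered RiboLace and polysome libraries share an animal. The SMN and polysome libraries came from mice of different genotype. No paired analysis was possible for SMN against IgG because they share 1 replicate number. Depth in RiboLace, with 1 to 23 reads per member, limits what that comparison can show.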
